A study of Mus musculus with 9 samples.

Results

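The genes described here are the peroxiredoxins Prdx1 to Prdx6, the thioredoxins Txn1 and Txn2, and the thioredoxin reductases Txnrd1 and Txnrd2. They were taken by symbol from the deposited count tables, where they make up 10 of 24736 genes, and all 10 passed the filter on low counts. Transcripts were measured in mouse oocytes arrested at metaphase of the second meiotic division, in 9 libraries of 15 oocytes from 1 mouse each. All donors were ICR females labelled as 4 to 5 weeks old, superovulated with 7.5 IU of PMSG and 7.5 IU of hCG, and the oocytes were freed from the cumulus by hyaluronidase after collection from the oviduct 16 h after hCG. The KYZY group (3 mice) went through 6 weeks of daily stressors and then received 0.1 ml of a decoction of the herbal recipe Kai Yu Zhong Yu by gavage each day for 4 weeks. The stress group (3 mice) went through the 6 weeks of stressors in the chronic unpredictable mild stress (CUMS) model, and the control group (3 mice) received no stress. The labels name no group given a vehicle by gavage. They also describe a sequencing step for the KYZY libraries that differs from that of the stress and control libraries. The recipe, the sequencing and the 4 weeks of daily gavage therefore cannot be told apart in any comparison with KYZY. The same holds for any difference in age or in time since the stressors that came with those 4 weeks. The labelled age is under the 6 weeks of stressors, so it does not give the age of the stressed mice at collection.

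Peroxiredoxins are peroxidases that reduce hydrogen peroxide and organic peroxides through a reactive cysteine. Thioredoxin returns most of them to the reduced state, and thioredoxin reductase, a selenoenzyme, recharges thioredoxin with electrons from NADPH. Prdx1, Prdx2, Txn1 and Txnrd1 act mainly in the cytosol, Prdx3, Txn2 and Txnrd2 in mitochondria, Prdx4 in the secretory pathway, and Prdx5 in several compartments; Prdx6 carries a single catalytic cysteine and draws on glutathione in place of thioredoxin. Oocytes hold their transcripts from growth and are nearly silent in transcription at this stage, so their RNA is mostly stored RNA.

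In many tissues the transcription factor Nrf2 raises genes of this system through antioxidant response elements. The core letters TGACNNNGC were searched on both strands in the 250 bases before each annotated start. RefSeq (GRCm38.p6) promoters were at hand for 9 of the 10 genes, in 11 windows, since Txnrd1 has 3 starts in the table; Prdx6 had no entry. The core was found in 2 windows, 1 of Prdx1 and 1 of Txnrd1, and 10.2% of all 32851 promoters of the same length held it. Those 2 windows are shown with the window of Prdx2, the other abundant peroxiredoxin, in which the letters were not found; capitals mark the match, which in both cases lies on the opposite strand. The Prdx1 window is chr4:116685349-116685598 (+ strand), the Txnrd1 window is chr10:82858956-82859205 (+ strand), and the Prdx2 window is chr8:84969372-84969621 (+ strand).
Prdx1: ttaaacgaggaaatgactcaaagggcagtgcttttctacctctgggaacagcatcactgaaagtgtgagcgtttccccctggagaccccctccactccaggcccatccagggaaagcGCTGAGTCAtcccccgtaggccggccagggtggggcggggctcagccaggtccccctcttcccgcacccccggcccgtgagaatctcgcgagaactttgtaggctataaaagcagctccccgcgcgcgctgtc
Txnrd1: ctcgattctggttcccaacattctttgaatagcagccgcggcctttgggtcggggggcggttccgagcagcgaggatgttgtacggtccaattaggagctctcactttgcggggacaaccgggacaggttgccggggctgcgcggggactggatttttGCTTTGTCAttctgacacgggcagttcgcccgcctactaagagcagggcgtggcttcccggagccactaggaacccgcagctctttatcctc
Prdx2: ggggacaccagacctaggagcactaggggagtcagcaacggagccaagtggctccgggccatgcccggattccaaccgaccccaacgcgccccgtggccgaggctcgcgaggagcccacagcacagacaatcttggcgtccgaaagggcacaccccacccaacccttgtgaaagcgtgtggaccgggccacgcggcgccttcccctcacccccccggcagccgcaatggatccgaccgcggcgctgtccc
The match began 133 bases before the start in Prdx1 and 92 bases before it in Txnrd1. Another 3 motifs were searched in the same way: GGGCGG (the GC box) was found in 8 of the 11 windows against 32.7% of all promoters, CCAAT in 3 against 33.8%, and TATAAA in 3 against 12.4%. These matches describe letters in the windows and were not tied to any value in the oocytes.

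Library totals ran from 46324094 to 106990821 counts, and 13257 to 15802 genes had a value above 0. Levels are in CPM, the usual scaling of a count by the size of its library, here TMM-scaled, unless a length is named. The 12 oocyte markers summed to 22310 to 43880 CPM per library. Transcripts of Tnfaip6, a gene of the expanding cumulus matrix, were present in 4 libraries (KYZY 2, KYZY 3, stress 3 and control 3, at 16.5, 10.4, 5.14 and 1.94 CPM) and at 0 in the other 5. The summed level of 24 cumulus and granulosa markers, 18 of which passed the filter, was 37.0 to 695 CPM in KYZY, 21.2 to 84.4 in stress and 23.6 to 370 in control libraries. In bulk RNA, more cells of another type and more RNA per such cell cannot be told apart.

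None of the 10 genes differed between groups at an adjusted p of 0.05. The background was as low: 0% of 13890 genes passed in each of the 3 comparisons. With the p left unadjusted, Prdx3 in stress against control and Prdx5 in KYZY against stress were under 0.05, where 2.69% and 3.98% of all genes were, and no member was in KYZY against control (2.74% of all genes). In stress against control 2 members, Prdx3 and Prdx5, did not overlap between the groups, where 7.88% of all genes did not. All 10 overlapped in KYZY against stress and in KYZY against control, where 9.19% and 7.23% of all genes did not. The members' median log2 fold change was 0.34 in KYZY against stress (9 above 0, 1 below), 0.30 in KYZY against control (6 above, 4 below) and -0.11 in stress against control (4 above, 6 below), beside medians over all genes of 0.008, -0.003 and -0.035, with 50.8%, 49.7% and 46% of all genes above 0. These comparisons share their libraries, so the 3 values are not independent.

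**Figure D1:**
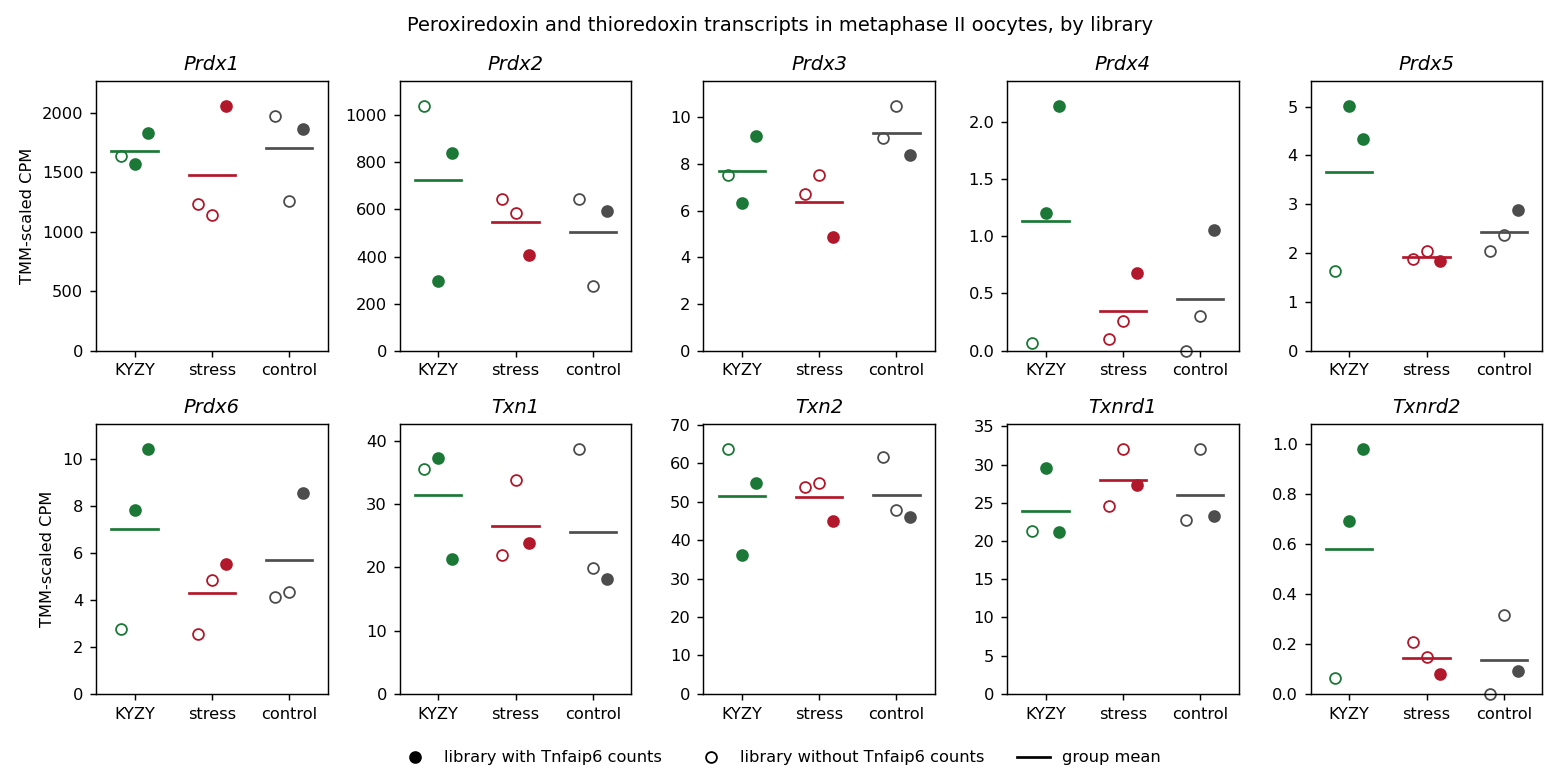
TMM-scaled CPM (y axis, linear from 0) of each gene in the 9 libraries, by group (x axis); each point is 1 library of 15 oocytes, filled where Tnfaip6 counts were present, and lines are group means. For every gene the KYZY range overlaps both other groups, while Prdx3 lies lower in the 3 stress libraries (4.87 to 7.51) than in the 3 control libraries (8.40 to 10.5).

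The cytosolic peroxiredoxins dominated. Prdx1 (GRCm38 chromosome 4, 116685544 to 116700822, + strand) ranked 88 of 13890 genes by mean CPM. It stood at 1634, 1565 and 1825 CPM in KYZY 1 to 3, at 1230, 1139 and 2059 in stress 1 to 3, and at 1973, 1259 and 1863 in control 1 to 3. The KYZY libraries lay close together, while stress 3 was the highest of the 9 and stress 2 the lowest, so the stress range held all the others. Means were 1675 ± 135, 1476 ± 507 and 1699 ± 384 CPM in KYZY, stress and control (SD, n = 3 each). The log2 fold change was 0.18 (SE 0.31, 95% interval -0.50 to 0.86) in KYZY against stress, -0.02 (interval -0.70 to 0.66) in KYZY against control and -0.20 (interval -0.88 to 0.48) in stress against control, with edgeR adjusted p of 0.955, 0.996 and 1.

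Prdx2 (chromosome 8, 84969587 to 84974834, + strand), the second cytosolic enzyme, known for its abundance in red cells, ranked 272 and varied far more. Its levels were 1041, 294 and 841 CPM in KYZY 1 to 3, 644, 584 and 407 in stress 1 to 3, and 642, 273 and 591 in control 1 to 3. KYZY 2 and control 2 were the low libraries, and KYZY 1 and 3 were the high ones. Across the 9 libraries the coefficient of variation was 42.0% for Prdx2 and 21.2% for Prdx1, and 61.4% and 23.1% of all genes tested varied less. Means were 725 ± 386, 545 ± 124 and 502 ± 200 CPM in KYZY, stress and control (SD, n = 3 each). Log2 fold changes were 0.41 (interval -0.62 to 1.44) in KYZY against stress, 0.53 (interval -0.50 to 1.56) in KYZY against control and 0.12 (interval -0.91 to 1.15) in stress against control, at edgeR adjusted p of 0.935, 0.996 and 1.

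The balance of the pair varied between mice. Prdx2 over Prdx1 in CPM was 0.64, 0.19 and 0.46 in KYZY 1 to 3, 0.52, 0.51 and 0.20 in stress 1 to 3, and 0.33, 0.22 and 0.32 in control 1 to 3. Each group with a high ratio also held a low library, and the ranges overlapped. Exons of Prdx2 overlap those of Junb over 173 bases and of Rnaseh2a over 177 bases on the opposite strand, 5.67% and 5.8% of its exon length. Prdx1 has 2 near-identical annotated copies (Gm21399 and Gm7204) and Prdx2 has 1 (Tdpx-ps1), none of them a row of the tables, so reads from these copies could have been counted on the parent genes.

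Prdx3 (chromosome 19, 60864051 to 60874556, - strand), the mitochondrial peroxiredoxin, was the only member whose interval in stress against control excluded 0 in the 9-library fit. Its levels were 6.70, 7.51 and 4.87 CPM in stress 1 to 3, against 9.13, 10.5 and 8.40 in control 1 to 3. Every stress library lay below every control library. KYZY 1 to 3 stood at 7.53, 6.31 and 9.18 CPM, between and across both groups. Means were 7.68 ± 1.44, 6.36 ± 1.35 and 9.34 ± 1.07 CPM in KYZY, stress and control (SD, n = 3 each). The log2 fold change in stress against control was -0.55 (SE 0.24, 95% interval -1.10 to -0.01), at an edgeR unadjusted p of 0.0462 and an adjusted p of 1, and 4.38% of all genes were lower in stress without overlap. It ranged from -0.70 to -0.40 when each library was left out, with unadjusted p of 0.0351 to 0.139.

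As every stress library lay below every control library, the same order had to hold on both sides of the Tnfaip6 split. Among libraries without Tnfaip6 counts, Prdx3 stood at 6.70 and 7.51 CPM in stress 1 and 2, against 9.13 and 10.5 in control 1 and 2. Among those with them, it stood at 4.87 CPM in stress 3, against 8.40 in control 3. With the presence of Tnfaip6 counts as a term, the log2 fold change in stress against control was -0.56 (SE 0.22; edgeR unadjusted p of 0.0289, adjusted p of 1). That term was taken from these same data, and the part of cumulus RNA in the Prdx3 values was not tested. In the fit without the term, the other comparisons were as follows. KYZY against stress gave 0.27 (interval -0.27 to 0.81) and KYZY against control -0.28 (interval -0.83 to 0.26), with edgeR adjusted p of 0.935 and 0.996.

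Prdx4 (chromosome X, 155323918 to 155340754, - strand), the peroxiredoxin of the endoplasmic reticulum, was near the limit of detection. It had 4, 82 and 105 counts in KYZY 1 to 3 (0.063, 1.20 and 2.14 CPM), 8, 30 and 44 in stress 1 to 3 (0.098, 0.262 and 0.683 CPM), and 0, 32 and 81 in control 1 to 3 (0, 0.306 and 1.06 CPM). In each group replicate 1 was under the floor of 12 counts and replicate 3 was highest. The log2 fold changes had SE of 1.49 to 1.52 and wide intervals: 1.71 (interval -1.72 to 5.14) in KYZY against stress, 1.32 (interval -2.07 to 4.70) in KYZY against control and -0.39 (interval -3.75 to 2.96) in stress against control. Single libraries decided the size: KYZY against control gave 0.48 without KYZY 3, 0.74 without control 1 and 2.87 without control 3, and KYZY against stress gave 0.90 without KYZY 3 and 2.64 without stress 3.

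Prdx5 (chromosome 19, 6906697 to 6910106, - strand) is the atypical family member found in mitochondria, peroxisomes and cytosol. Its levels were 1.64, 5.02 and 4.33 CPM in KYZY 1 to 3, 1.88, 2.05 and 1.85 in stress 1 to 3, and 2.05, 2.38 and 2.89 in control 1 to 3. KYZY 2 and 3 were the highest of all 9 libraries and KYZY 1 was the lowest, so the KYZY range enclosed both other groups. In KYZY against stress the means were 3.66 ± 1.78 and 1.93 ± 0.110 CPM (SD, n = 3 each), and the log2 fold change was 0.93 (SE 0.40, interval 0.04 to 1.81; edgeR unadjusted p of 0.0415, adjusted p of 0.935).

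That difference rested on KYZY 2 and 3, both of which held Tnfaip6 counts. With the Tnfaip6 term it was 0.61 (edgeR unadjusted p of 0.147). Without the 4 libraries that held Tnfaip6 counts, KYZY 1 set against stress 1 and 2 gave -0.24. The term and the split come from these same data, and the part of cumulus RNA in the Prdx5 values was not tested. Without KYZY 1 the log2 fold change was 1.28, and without KYZY 2 it was 0.63. The stress libraries lay below the control libraries by a margin of under 0.01 CPM (stress 2 and control 1 both at 2.05), with a log2 fold change of -0.34 (interval -1.22 to 0.54; edgeR adjusted p of 1). KYZY against control gave 0.59 (interval -0.29 to 1.46; edgeR adjusted p of 0.996). Exons of Prdx5 share 409 bases, 19.1% of its exon length, with Trmt112 on the opposite strand, a methyltransferase cofactor at 58.4 to 113 CPM, and without strand information reads of the 2 genes in that stretch cannot be told apart.

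Prdx6 (chromosome 1, 161240112 to 161251219, - strand), the 1-cysteine peroxiredoxin, which also has phospholipase activity, stood at 2.78, 7.83 and 10.5 CPM in KYZY 1 to 3, at 2.55, 4.85 and 5.53 in stress 1 to 3, and at 4.15, 4.36 and 8.56 in control 1 to 3. The 4 highest libraries were the 4 with Tnfaip6 counts. Group means of 7.02 ± 3.90, 4.31 ± 1.56 and 5.69 ± 2.49 CPM (SD, n = 3 each) gave log2 fold changes of 0.70 (interval -0.40 to 1.81) in KYZY against stress, 0.30 (interval -0.80 to 1.40) in KYZY against control and -0.40 (interval -1.50 to 0.70) in stress against control, with edgeR adjusted p of 0.935, 0.996 and 1. With the Tnfaip6 term the value in KYZY against stress was 0.18.

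**Figure D2:**
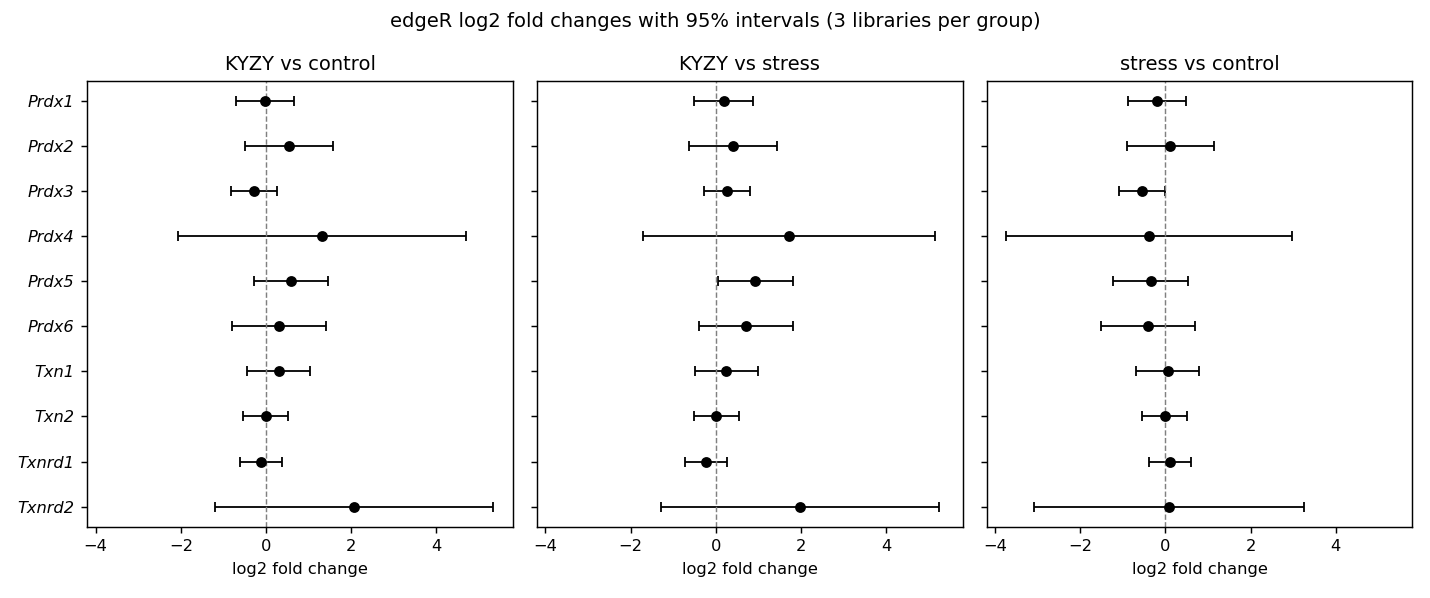
edgeR log2 fold changes (x axis) of the 10 genes (y axis) with 95% intervals in KYZY against control, KYZY against stress and stress against control, 3 libraries per group. The intervals of Prdx5 in KYZY against stress (0.04 to 1.81) and Prdx3 in stress against control (-1.10 to -0.01) leave out 0, and those of Prdx4 and Txnrd2 are the widest.

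Among the electron donors, Txn1 (chromosome 4, 57943373 to 57956411, - strand), the cytosolic thioredoxin, stood at 35.6, 37.3 and 21.4 CPM in KYZY 1 to 3, at 21.9, 33.9 and 23.8 in stress 1 to 3, and at 38.8, 19.96 and 18.2 in control 1 to 3. High and low libraries were found in every group. Means were 31.4 ± 8.74, 26.6 ± 6.41 and 25.7 ± 11.4 CPM (SD, n = 3 each), and the log2 fold changes were 0.24 (interval -0.50 to 0.98) in KYZY against stress, 0.29 (interval -0.45 to 1.03) in KYZY against control and 0.05 (interval -0.69 to 0.79) in stress against control. Txn-ps1 is a near-identical copy of Txn1 and no row of the tables.

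Txn2 (chromosome 15, 77915047 to 77929006, - strand), its mitochondrial counterpart, was among the steadiest members. Levels were 63.7, 36.1 and 54.9 CPM in KYZY 1 to 3, 53.7, 54.9 and 45.0 in stress 1 to 3, and 61.6, 47.7 and 45.99 in control 1 to 3. Its coefficient of variation over the 9 libraries was 16.9%, and 12.0% of all genes tested varied less. The 3 means were 51.6 ± 14.1, 51.2 ± 5.40 and 51.8 ± 8.53 CPM in KYZY, stress and control (SD, n = 3 each). Its intervals bounded any log2 fold change to between -0.52 and 0.54 in KYZY against stress, between -0.53 and 0.52 in KYZY against control and between -0.54 and 0.51 in stress against control.

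Txnrd1 (chromosome 10, 82833951 to 82897712, + strand), the cytosolic reductase, was as steady, with a coefficient of variation of 16.8%. Its levels were 21.3, 29.5 and 21.1 CPM in KYZY 1 to 3, 24.6, 32.0 and 27.3 in stress 1 to 3, and 22.7, 32.1 and 23.2 in control 1 to 3. Replicate 2 was the highest of each group. Txnrd1 was the 1 member below 0 in KYZY against stress, with a log2 fold change of -0.22 (interval -0.71 to 0.27; edgeR adjusted p of 0.935). The values were -0.12 (interval -0.61 to 0.37) in KYZY against control and 0.11 (interval -0.38 to 0.59) in stress against control, at edgeR adjusted p of 0.996 and 1.

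Txnrd2 (chromosome 16, 18426384 to 18479073, + strand), the mitochondrial reductase, was barely detected. It had 4, 47 and 48 counts in KYZY 1 to 3 (0.063, 0.690 and 0.979 CPM), 17, 17 and 5 in stress 1 to 3 (0.209, 0.148 and 0.078 CPM), and 0, 33 and 7 in control 1 to 3 (0, 0.315 and 0.091 CPM). In 4 libraries it was under the floor, and KYZY 2 and 3 were the highest. Log2 fold changes were 1.98 (interval -1.28 to 5.24) in KYZY against stress, 2.06 (interval -1.21 to 5.32) in KYZY against control and 0.08 (interval -3.09 to 3.25) in stress against control. KYZY against control gave 1.47 without KYZY 3, 1.49 without control 1 and 3.58 without control 2, and KYZY against stress gave 1.39 without KYZY 3 and 2.505 without KYZY 1.

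**Figure D3:**
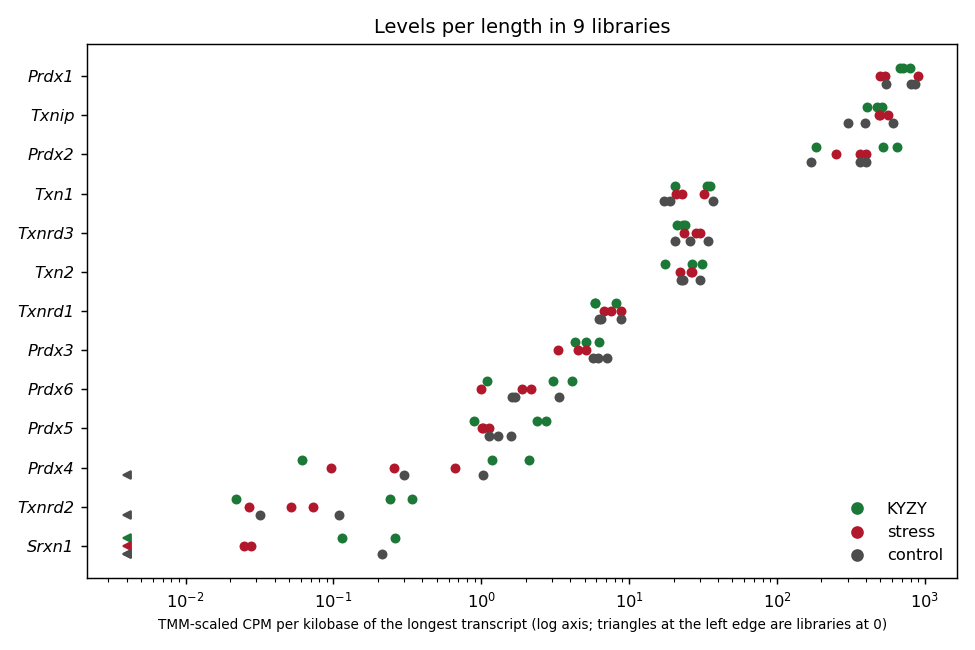
CPM per kilobase of the longest annotated transcript (x axis, log scale) for the 10 genes and for Txnip, Txnrd3 and Srxn1 (y axis), 1 point per library, coloured by group; triangles at the left edge mark libraries at 0. Prdx1 and Prdx2 stand between 169.6 and 897.7 and Prdx4, Txnrd2 and Srxn1 at or below 2.09.

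Per length, the order of the members was the same in broad terms as by CPM. In CPM per kilobase of the longest transcript over 9 libraries (mean ± SD), Prdx1 stood at 705 ± 149 and Prdx2 at 367 ± 154. Txn1 at 26.5 ± 7.91 and Txn2 at 25.1 ± 4.24 were next and did not differ beyond their spread on this length; per kilobase of the exon union they stood at 26.5 (17.3 to 36.9) and 12.2 (8.58 to 15.1), without overlap. Txnrd1 followed at 7.18 ± 1.21 and Prdx3 at 5.27 ± 1.16, whose ranges overlapped (5.83 to 8.85 and 3.30 to 7.10); on the exon union Txnrd1 was the lower, at 3.67 (2.98 to 4.53) against 5.27, and the ranges still overlapped. Prdx6 at 2.22 ± 1.06, Prdx5 at 1.47 ± 0.658 and Prdx4 at 0.630 ± 0.693 overlapped as neighbours, and Txnrd2 was last at 0.0995 ± 0.116. Prdx1 made up 52.2% to 77.9% of the summed peroxiredoxin level per length, Prdx2 20.9% to 47.3%, and Prdx3 to Prdx6 together 0.524% to 1.43%. The cytosolic reductase was thus far above its mitochondrial partner. Txn1 over Txn2 lay between 0.760 and 2.02 per length of the longest transcript and between 1.56 and 4.14 per length of the exon union, so their order depends on the length used.

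Chosen after its values were seen, Txnrd3, the third reductase, known for its role in testis, was the highest of the 3 at 25.6 ± 4.52 CPM per kilobase. Txnrd3 over Txnrd1 was 2.66 to 4.41 per length of the longest transcript and 5.20 to 8.63 per length of the exon union. Its levels were 65.9, 68.0 and 59.9 CPM in KYZY 1 to 3, 85.1, 66.6 and 79.9 in stress 1 to 3, and 72.6, 97.6 and 57.8 in control 1 to 3, and its log2 fold change in KYZY against stress was -0.26 (interval -0.75 to 0.23; edgeR adjusted p of 0.935).

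Beyond the members, 66 genes of the pathway were listed in 3 groups, 61 of which passed the filter, and 0 passed an adjusted p of 0.05 in any comparison by edgeR. With p unadjusted, 4 were under 0.05 in KYZY against stress, all higher, 2 in KYZY against control, both lower, and 0 in stress against control. Of all genes tested, 3.98%, 2.74% and 2.69% were under 0.05 in the same order. Of those genes, 299 were higher and 254 lower in KYZY against stress, and 121 higher and 259 lower in KYZY against control. DESeq2 called 24, 12 and 1 genes in stress against control, KYZY against stress and KYZY against control, and none was a member or a listed gene.

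Of 30 relatives with a thioredoxin fold, 26 were tested, with median log2 fold changes of 0.01 in KYZY against stress, 0.13 in KYZY against control and -0.14 in stress against control. The highest were Glrx, the cytosolic glutaredoxin, at 394 ± 119, 505 ± 22.3 and 460 ± 131 CPM in KYZY, stress and control, and Txndc5 and P4hb, disulfide isomerases of the endoplasmic reticulum, at 407 ± 95.9, 472 ± 112 and 441 ± 106 CPM and at 421 ± 97.7, 380 ± 208 and 322 ± 63.9 CPM in the same order (SD, n = 3 each). Glrx3, a glutaredoxin of iron-sulfur cluster handling, was at 1.25 to 1.55 CPM in KYZY, against 0.098 to 0.715 in stress, without overlap, at a log2 fold change of 1.82 (edgeR unadjusted p of 0.0477, adjusted p of 0.935). Txndc15 was at 1.94 to 3.98 CPM in KYZY, against 1.16 to 1.89 in stress. Txndc11 was at 66.5 to 73.3 CPM in KYZY, against 78.5 to 108 in control. Tmx1, a membrane thioredoxin-like protein, was at 0.474, 13.2 and 6.24 CPM in KYZY 1 to 3, against 0.319, 0.611 and 2.76 in stress 1 to 3.

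Among 20 partners and consumers of the system (19 tested), Txnip, the protein that binds and restrains thioredoxin, was abundant throughout. Its levels were 1332, 1459 and 1155 CPM in KYZY 1 to 3, 1397, 1386 and 1590 in stress 1 to 3, and 1735, 848 and 1116 in control 1 to 3, and its log2 fold changes were -0.15, 0.09 and 0.24 in KYZY against stress, KYZY against control and stress against control. Per length it stood at 472 ± 93.9, between Prdx1 and Prdx2. Of the NADPH-producing enzymes, Me1 stood at 1276 to 1365 CPM in KYZY, against 926 to 1152 in stress, without overlap (log2 fold change 0.38, edgeR unadjusted p of 0.148), where 3.76% of all genes were higher in KYZY without overlap. G6pdx, which opens the pentose phosphate pathway, was at 854 ± 310, 977 ± 80.3 and 872 ± 320 CPM in KYZY, stress and control (SD, n = 3 each).

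Map3k5, the stress kinase ASK1, which reduced thioredoxin holds inactive, stood at 31.3, 35.4 and 22.3 CPM in KYZY 1 to 3, against 21.5, 19.8 and 20.2 in stress 1 to 3. All KYZY libraries lay above all stress libraries, at a log2 fold change of 0.53 (edgeR unadjusted p of 0.0289, adjusted p of 0.935). The highest and the lowest of them, KYZY 2 at 35.4 CPM and KYZY 3 at 22.3 CPM, held Tnfaip6 counts. KYZY 1 at 31.3 CPM held none. The part of the Tnfaip6 split in this difference was not tested. Msrb3, a methionine sulfoxide reductase, was at 45.7, 8.43 and 24.9 CPM in KYZY 1 to 3, against 11.8, 12.7 and 6.49 in stress 1 to 3 (log2 fold change 1.35, edgeR unadjusted p of 0.0435, adjusted p of 0.935). Its value in KYZY 1 was the highest of all 9 libraries, and without the 4 libraries with Tnfaip6 counts it was the 1 list gene called, with KYZY 1 as the only KYZY library. Rrm1, the large subunit of ribonucleotide reductase, was at 35.7 to 42.5 CPM in stress, against 30.2 to 33.2 in control, without overlap (edgeR unadjusted p of 0.0932). Ero1lb, an oxidase of the endoplasmic reticulum, was at 47.2 to 59.1 CPM in stress, against 39.1 to 48.3 in control. Sesn2, a sestrin, was at 1.72 to 3.73 CPM in KYZY, against 3.54 to 6.45 in control. Srxn1, which restores overoxidised peroxiredoxins and is named here after its values were seen, was at 0 to 0.735 CPM over the 9 libraries and at 0 in 4 of them.

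All 16 genes listed for the Nrf2 pathway were tested. In stress against control 2 had a log2 fold change above 0 and 14 below, with a median of -0.30 beside -0.035 over all genes, and none passed the test. Markers of other cells lay the same way: 0 of 8 for oviduct epithelium, 1 of 7 for blood and immune cells and 2 of 11 for stroma and endothelium were above 0, with medians of -0.83, -0.85 and -0.95, while 9 of 18 for cumulus and granulosa cells were above 0. In control 1, 2 and 3 the summed blood and immune markers were 0.331, 1.49 and 10.3 CPM, and those of stroma and endothelium 22.8, 31.9 and 77.2. Control 3 was thus the highest control library for both. The oviduct sums, 502, 419 and 291 CPM, lay the other way and were mostly Cdh1 (500, 416 and 272 CPM). The part of these cells in the values of the Nrf2 list was not tested. Medians were 0.48 in KYZY against stress (10 above 0, 6 below) and 0.13 in KYZY against control (9 above, 7 below). Nfe2l2, which encodes Nrf2, stood at 3.71, 3.38 and 4.59 CPM in KYZY 1 to 3, at 2.11, 2.91 and 2.499 in stress 1 to 3, and at 3.14, 2.18 and 2.94 in control 1 to 3. Every KYZY library was above every stress and control library, with log2 fold changes of 0.63 and 0.50 (edgeR unadjusted p of 0.0483 and 0.107, adjusted p of 0.935 and 0.996). Of the Nrf2 targets, Nqo1 and Gsta4 were lower without overlap in KYZY than in control, and in stress than in control. Nqo1 was at 2.29 to 2.87 CPM in KYZY and 2.45 to 3.59 in stress, against 3.67 to 5.37 in control. Gsta4 was at 6.83 to 10.4 CPM in KYZY and 8.86 to 10.7 in stress, against 12.1 to 13.6 in control. In KYZY against control the log2 fold changes were -0.77 and -0.49 (edgeR unadjusted p of 0.0204 and 0.0458, both at an adjusted p of 0.996). Of all genes, 7.23% did not overlap in KYZY against control and 7.88% in stress against control. Slc7a11, the cystine transporter subunit, was at 119 ± 11.2, 127 ± 27.0 and 103 ± 7.07 CPM in KYZY, stress and control (SD, n = 3 each). Sqstm1, an autophagy receptor, was at 18.8, 56.1 and 44.3 CPM in KYZY 1 to 3, against 22.1 to 26.5 in stress and 20.6 to 32.2 in control.

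The ferritin chains Ftl1 and Fth1 varied most in this list. Ftl1, the light chain, stood at 16.0, 305 and 422 CPM in KYZY 1 to 3, at 18.3, 35.9 and 62.7 in stress 1 to 3, and at 14.2, 16.9 and 235 in control 1 to 3. Fth1, the heavy chain, was at 25.9, 162 and 309 CPM, at 15.5, 22.7 and 45.5 and at 10.7, 13.1 and 180 in the same libraries. For both genes the 4 highest libraries were the 4 with Tnfaip6 counts.

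The members were then set out by the presence of Tnfaip6 counts, as a description with no test. Prdx4 lay between 0.683 and 2.14 CPM in the 4 libraries with Tnfaip6 counts and between 0 and 0.306 in the 5 without. Prdx6 lay between 5.53 and 10.5 CPM in libraries with them and between 2.55 and 4.85 in those without. For these 2 genes every library with Tnfaip6 counts was above every library without. The other 8 members overlapped. Of all genes tested 17% did not overlap between these libraries, 9.94% being higher and 7.09% lower with Tnfaip6 counts, so 2 of 10 members is near that background.

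The other members overlapped to different extents. Txnrd2 ran from 0.078 to 0.979 CPM (median 0.391) with Tnfaip6 counts and from 0 to 0.315 (median 0.148) without, and Prdx2 from 294 to 841 (median 499) with and from 273 to 1041 (median 642) without. Prdx5 ran from 1.85 to 5.02 CPM with Tnfaip6 counts and from 1.64 to 2.38 without, and Prdx1 from 1565 to 2059 (median 1844) with and from 1139 to 1973 (median 1259) without. Txn2 ran from 36.1 to 54.9 CPM with and from 47.7 to 63.7 without, Txn1 from 18.2 to 37.3 with and from 19.96 to 38.8 without, and Txnrd1 from 21.1 to 29.5 with and from 21.3 to 32.1 without. Medians of Prdx3 were 7.36 CPM with and 7.53 without. The summed cumulus and granulosa markers were 84.4 to 695 CPM in libraries with Tnfaip6 counts and 21.2 to 40.2 in those without, and 12 of the 18 markers tested, Tnfaip6 included, were higher without overlap. Oocyte markers summed to 23280 to 34350 CPM with and 22310 to 43880 without, and 0 of 12 separated. Markers of oviduct epithelium, of blood and immune cells and of stroma and endothelium each had 2 genes higher without overlap, of 8, 7 and 11 tested. The part of these cells in the levels of Prdx4 and Prdx6 was not tested.

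**Figure D4:**
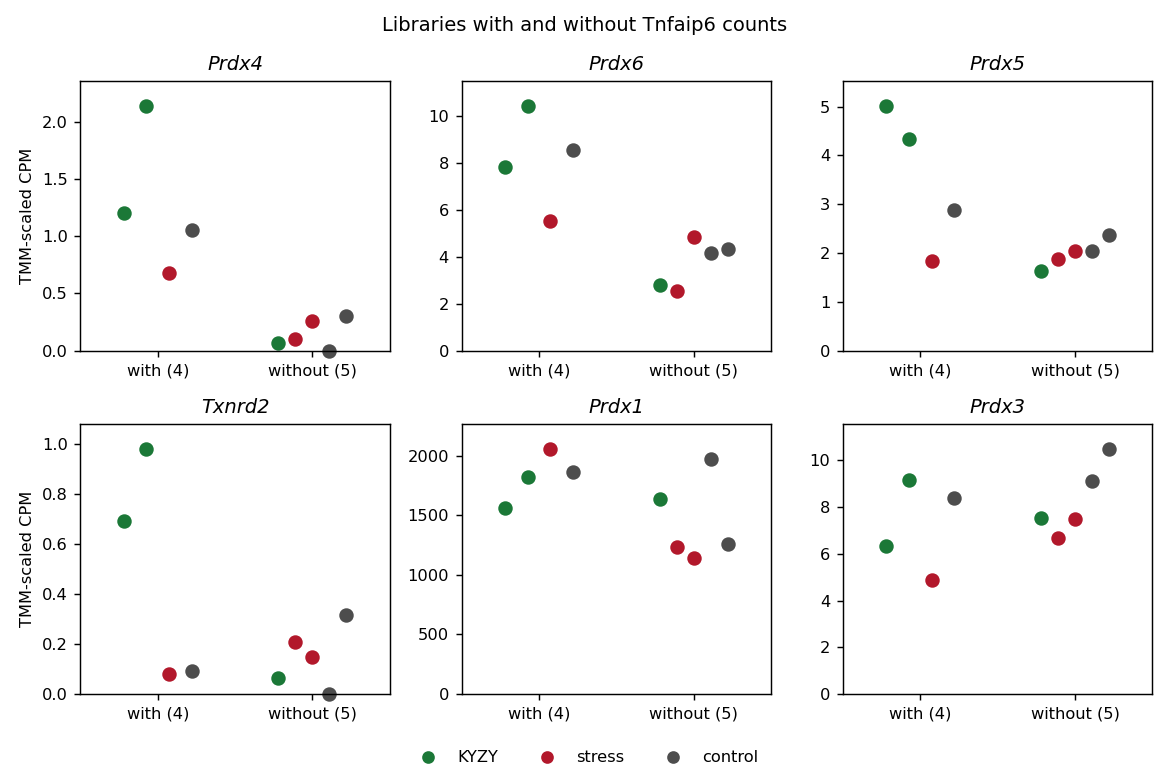
TMM-scaled CPM (y axis, linear from 0) of 6 members in the 4 libraries with and the 5 libraries without Tnfaip6 counts (x axis), 1 point per library, coloured by group. Prdx4 and Prdx6 do not overlap between the columns, while Prdx5, Txnrd2, Prdx1 and Prdx3 do.

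Since 2 of the 3 KYZY libraries, 1 stress library and 1 control library held Tnfaip6 counts, the split is not balanced over the groups, and its part in the KYZY comparisons was not tested. With the Tnfaip6 term, the log2 fold change in KYZY against stress was 0.18 for Prdx4 and 0.18 for Prdx6, against 1.71 and 0.70 without it. The term comes from these same data and both genes separate by it, so the smaller values do not test a cause. In the 5 libraries without Tnfaip6 counts, KYZY 1 stood below the stress mean for Prdx4, Prdx5, Prdx6 and Txnrd2. The log2 fold changes were -1.47, -0.24, -0.40 and -1.46, each the other way from the full set. KYZY 1 held 4 counts of Prdx4 and 4 of Txnrd2, under the floor of 12, so the values of Prdx4 and Txnrd2 rest on few counts. Txn1 was 0.37 with the term and 0.24 without it, and Prdx3 0.37 with it and 0.27 without it; neither passed the test.

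Genes with the most similar profile over the 9 libraries were sought for 3 members by the root mean square difference of log2(CPM + 0.5) after each gene's own mean was taken off. For Prdx1, whose own spread was 0.300, they were B230118H07Rik, Gm5065 and Amd1 at 0.094, 0.096 and 0.108. For Txn1, with a spread of 0.401, they were Dcp1a, Depdc7 and Tubb5 at 0.202, 0.209 and 0.217. For Txnrd1, with a spread of 0.222, they were Ubash3b, Prkdc and P2ry4 at 0.076, 0.086 and 0.090. The mean level of P2ry4 (0.059 CPM) was under the floor of 0.105 to 0.245 CPM and that of Amd1 (0.260 CPM) just above it, so few counts make up their profiles. None of the nearest genes was another member.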

How the data were processed

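RNA was measured in 9 libraries, and the 10 genes were read from the row of each symbol in the deposited table of each library. The tables hold expected counts deposited by the authors, whole-number estimates of reads per gene that were not normalized; the unit was taken from the values, since the tables name none. Per the submitters' processing notes, HISAT2, StringTie, Trim Galore, bcl2fastq 2.20 and DESeq2 were used, with builds given as GRCm38 and mm10 and no settings. The value 4 was overrepresented in every library, so 1 read pair appeared to be worth about 4 units, and the floor for a low gene was set at 3 read pairs, or 12 counts (0.105 to 0.245 CPM). The cDNA protocol has no molecular identifiers and no strand information, so floors cover counting error only and reads of overlapping genes on opposite strands cannot be told apart.

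Counts were tested in R 4.3.3 with edgeR 4.0.16: TMM scaling, filterByExpr (minimum count 10, minimum total 15; 13890 of 24736 genes kept), a robust quasi-likelihood fit with 1 mean per group over all 9 libraries (6 residual degrees of freedom), 2-sided F tests and Benjamini-Hochberg adjustment over 13890 genes at 0.05. DESeq2 1.42.0 was the alternative. The p-values measure the spread between mice, 1 library each. The test was checked on simulated counts. Log2 fold changes have 95% intervals. Lengths, positions and exon overlaps come from GENCODE M21 on GRCm38, near-identical copies from BLAST+ 2.17.0 (at least 95% identity over at least 200 bases), and promoters from RefSeq on GRCm38.p6.

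The members and the lists were chosen with earlier results of these data known. Besides the 10 members, the text names from each of the 3 pathway lists the genes that passed the test, the 3 with the highest mean CPM and the 2 with the smallest p in each comparison, and for Prdx1, Txn1 and Txnrd1 the 3 genes with the nearest profile. The libraries with and without Tnfaip6 counts were not tested against each other, since the split comes from a measured transcript. The split also entered alternative fits of the group comparisons, as a term or by leaving out the libraries with counts. Those fits rest on a split taken from these same data. Deviations of same-numbered libraries from their group means correlated across genes at 0.31, 0.19 and 0.35 for stress 1 to 3 with control 1 to 3. The numbers may pair the libraries there, though control 2 correlated at 0.23 with stress 1, above its 0.19 with stress 2. This comes from the values, not the labels. The values reported are from the fit without a block, and the fit with the replicate block was an alternative. Alternatives covered scaling, filters, the test, the libraries included, a replicate block, a Tnfaip6 term, counts divided by 4, leaving out each library, and exon-union lengths. No per-sample column was left unused.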

Additional observations from a re-analysis of the deposited data

How the results depend on the processing

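In 19 alternative fits, none of the 10 members passed an adjusted p of 0.05 by edgeR or DESeq2. Of 544 alternative member fold changes, 494 kept their sign, or had none, and 50 had the other sign. The spread between libraries, with a common biological coefficient of variation of 0.611, limits all 3 comparisons, and Prdx4 and Txnrd2 were under the floor of 12 counts in 3 and 4 of the 9 libraries. Over all genes, against 0 called in each comparison, DESeq2 called 24 in stress against control, 12 in KYZY against stress and 1 in KYZY against control. The fit without the 4 libraries with Tnfaip6 counts, which leaves KYZY 1 alone and assumes that it varies like the other groups, called 148, 115 and 119 genes in the same order, with 1 list gene, Msrb3, in each KYZY comparison. The fit of only the 2 groups compared called 1 gene in KYZY against stress. Leaving out each library in turn gave 0 to 2, 0 to 1 and 0 to 3 genes in the same order. In each case beyond the construction of the fit the cause was not tested.

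Log2 fold changes of the other sign were as follows. In KYZY against control, Prdx1 was 0.020 with DESeq2, 0.023 with its size factors in edgeR, 0.016 with the stricter filter and 0.042 without the 4 libraries; Txn2 was 0.036, 0.039, 0.033 and 0.249 under the same settings, 0.008 with counts divided by 4 and 0.093 with the Tnfaip6 term; Prdx6 was -0.14 with that term. Without the 4 libraries, Prdx4, Prdx5, Prdx6 and Txnrd2 were -1.24, -0.40, -0.58 and -1.28 in KYZY against control and -1.47, -0.24, -0.40 and -1.46 in KYZY against stress, and Prdx4 and Txn1 were 0.23 and -0.066 in stress against control. Leaving out single libraries gave ranges that crossed 0. They ran in stress against control from -0.19 to 0.33 for Prdx2, -1.32 to 1.13 for Prdx4, -0.62 to 0.023 for Prdx6, -0.17 to 0.48 for Txn1, -0.088 to 0.127 for Txn2, -0.009 to 0.271 for Txnrd1 and -0.49 to 1.58 for Txnrd2. They ran in KYZY against stress from -0.18 to 0.21 for Txn2, and in KYZY against control from -0.19 to 0.10 for Prdx1, -0.091 to 0.754 for Prdx6, -0.19 to 0.19 for Txn2 and -0.30 to 0.07 for Txnrd1.

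With the replicate block over all 9 libraries, Prdx4 was 0.56 in stress against control and Txn2 was -0.017 in KYZY against stress. In the replicate block of the stress and control libraries only, added after seeing the data, Prdx4 was 0.45 and 1 gene was called, which is no member; the blocks changed no other call. Same-numbered KYZY libraries correlated at 0.40, -0.15 and 0.17 with stress and at 0.51, -0.14 and 0.56 with control, in the order of their numbers. Both values of KYZY 2 were negative, so the numbers did not pair all of the KYZY libraries. Per kilobase of the exon union, Prdx1 averaged 531, Prdx2 194, Txn2 12.2 and Txnrd1 3.67 CPM. Scaled by library totals without TMM, also added after seeing the data, 1 member, Prdx4, did not overlap between libraries with and without Tnfaip6 counts.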

Other observations

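Several listed genes that the comparisons between groups left undescribed differed in level between the 4 libraries with Tnfaip6 counts and the 5 without, and they are named here after their values were seen. Idh1, the cytosolic isocitrate dehydrogenase that supplies NADPH, stood at 44.7 to 166 CPM with and 17.9 to 33.8 without. The small subunits of ribonucleotide reductase, Rrm2 and Rrm2b, stood at 71.9 to 86.4 and 288 to 360 CPM with, against 41.2 to 61.0 and 142 to 214 without. The disulfide isomerase Pdia6 was at 31.9 to 46.5 CPM with and 17.99 to 19.4 without, and Txnl1, a thioredoxin-like proteasome partner, at 51.3 to 62.2 with and 37.3 to 50.8 without.

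Other listed genes lay the opposite way. Keap1, the adaptor that marks Nrf2 for degradation, was at 11.5 to 14.0 CPM in libraries with Tnfaip6 counts and 18.2 to 26.8 in those without. Bach1, a repressor at antioxidant response elements, was at 3.29 to 4.20 CPM with and 4.29 to 7.37 without, and Txndc2, a thioredoxin known from sperm, at 25.1 to 31.3 with and 32.3 to 44.7 without. Over the 3 pathway lists, 13 of 61 genes tested were higher and 5 lower without overlap, beside 9.94% and 7.09% of all genes tested.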
